A study of Homo sapiens with 28 samples.

Results

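The 10 genes described here, SOX10, SOX5, PAX3, ZEB2, MITF, EDNRB, ERBB3, OCA2, RAB27A and S100B, belong to the melanocyte lineage, and they are 10 of the 22357 genes that the arrays measured under a gene symbol. Each gene was taken from the probe sets that the platform annotation names with its symbol alone, and where there were several, the probe set with the highest mean log2 value stood for the gene. Expression was measured on 28 Affymetrix arrays of CHL-1, an established human melanoma line obtained from ATCC and grown in DMEM with fetal calf serum. BAY1238097 blocks the BET bromodomain proteins, which bind acetylated histones and help RNA polymerase to elongate transcripts. Cells received 75 nM of it (given by the submitters as its IC50), 468 nM (its IC90) or the vehicle DMSO, each for 4 h or 24 h. DMSO had 4 arrays at each time, and each dose had 5 at each time. The labels do not tell whether replicate arrays were made from independent cultures. Every p-value therefore refers to the spread between these arrays, which may be technical. For the dosed groups the replicate number used here equals the array's series by sample title, described below. DMSO has no array in series 1, and its replicates 1 to 4 belong to series 2 to 5. A DMSO array and a dosed array with the same replicate number are therefore of different series.

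Melanocytes arise from the neural crest, and SOX10 and PAX3 are the transcription factors that keep this identity. In pigmented cells they switch on MITF, which in turn switches on the genes for melanin synthesis. ZEB2, a zinc finger repressor best known for its part in epithelial-mesenchymal transition, is expressed by mature melanocytes. SOX5 has a DNA-binding domain of the same type as that of SOX10 and can compete with it. ERBB3, a receptor for neuregulins, and EDNRB, a receptor for endothelins, carry growth signals to melanoblasts. OCA2 sets the pH of the melanosome, RAB27A is the small GTPase that tethers melanosomes to actin and also serves vesicle secretion, and S100B is a calcium-binding protein used as a marker of melanoma.

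Values are RMA intensities on a log2 scale, on which the median probe set had a mean of 2.34 and the 90th percentile was 7.37. The filter for testing, a value over 5 on 4 or more arrays, passed 9285 genes and 9 of the 10 described here. MITF did not pass. Its 28 values lay between 2.03 and 3.66 with a mean of 2.60, higher than 54.5% of all probe set means, so its probe set was at the level where most probe sets lie. ZEB2 lay closest to the filter value among the 9, with a mean of 5.70 and 25 of 28 arrays above it. The other 8 genes were above it on all 28 arrays, with means from 6.32 (EDNRB) to 9.55 (SOX10). RAB27A had a second, dimmer probe set with a mean of 4.61 and 7 arrays above the filter value. Levels of different probe sets are not comparable as amounts of RNA.

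The melanocyte name was only partly borne out by the markers. Of 13 pigment and melanosome genes, 11 were named by a probe set with 1 symbol. Probe sets with several symbols were not used, so a gene that was not named is not thereby absent from the arrays. Of the 11, 9 were below the filter, with means from 1.05 to 2.95. The 9 include TYR and TYRP1, enzymes of melanin synthesis, PMEL, which forms the melanosome's fibrils, and MLANA. RAB38 and RAB32, which carry cargo to melanosomes, passed. Among Schwann cell markers CDH19, an adhesion protein of the same neural crest branch, had a mean of 10.1 while MBP and PRX were below the filter. Of 30 markers of endothelial cells, leukocytes, fibroblasts and keratinocytes, 24 were named and 22 of these were below the filter, at means from 0.92 to 3.82. The ranges of their mean levels overlapped between DMSO and 468 nM at both times, for each of these cell types.

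**Figure D1:**
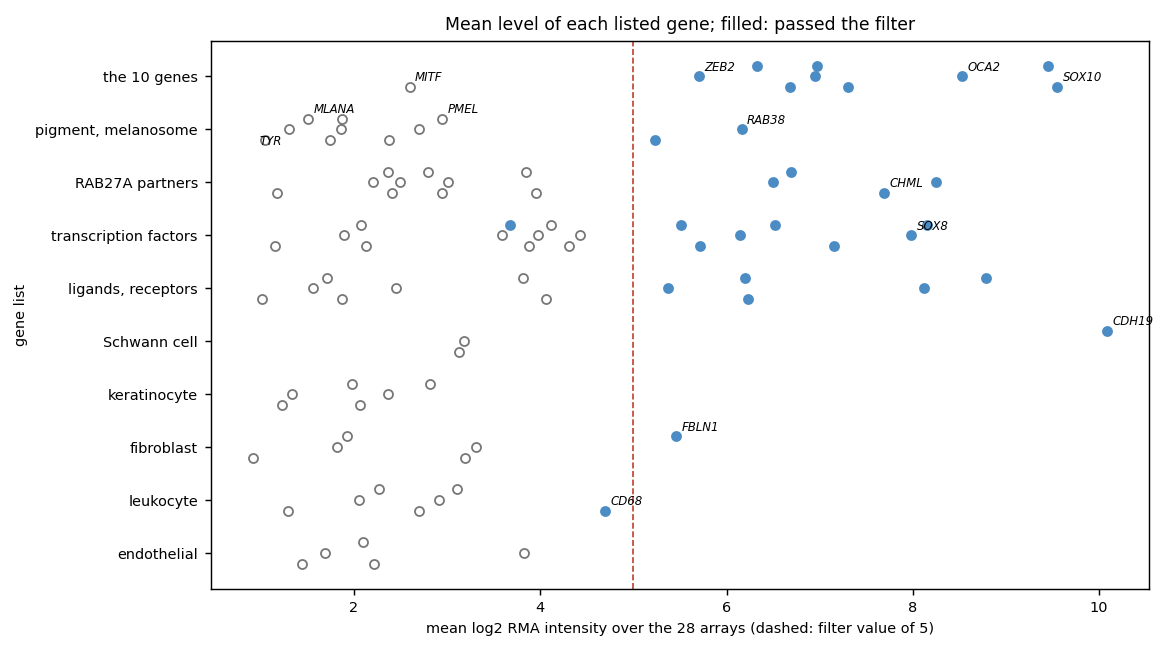
Mean log2 RMA intensity over the 28 arrays (x axis) of each named gene in each list (y axis). Filled points passed the filter, which counts arrays, so that FOXD3 (3.68) and CD68 (4.69) passed with a mean below it, and open points did not pass. MITF at 2.60 lies among the pigment genes that did not pass, while 9 of the 10 genes lie to the right of the filter value of 5, drawn as a dashed line.

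The promoters below belong to genes whose levels the results turn on: ZEB2, which fell early, EDNRB and RAB27A, which were lower at 24 h, SOX5 and OCA2, which were higher at 24 h, and MITF, the lineage factor that stayed near background. RefSeq promoters of the build GRCh38.p14 were at hand for 7 of the 10 genes, in 14 windows. SOX10, ERBB3 and S100B have no entry in the table used. Each sequence is the 250 bases before a start site, read 5′ to 3′ on the gene's strand. Capitals mark the motifs searched on both strands: the SOX core motifs ACAAAG and ACAATG, the M-box TCATGTG and the E-box CACGTG, both bound by MITF, and the cyclic AMP response element TGACGTCA.

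ZEB2 promoter, chr2:144520120-144520369, minus strand: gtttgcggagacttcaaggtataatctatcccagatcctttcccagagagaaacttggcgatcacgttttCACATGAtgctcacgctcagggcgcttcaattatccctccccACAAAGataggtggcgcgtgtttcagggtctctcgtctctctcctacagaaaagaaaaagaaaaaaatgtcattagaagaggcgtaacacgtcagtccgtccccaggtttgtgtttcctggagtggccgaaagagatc

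SOX5 promoter, chr12:24562492-24562741, minus strand: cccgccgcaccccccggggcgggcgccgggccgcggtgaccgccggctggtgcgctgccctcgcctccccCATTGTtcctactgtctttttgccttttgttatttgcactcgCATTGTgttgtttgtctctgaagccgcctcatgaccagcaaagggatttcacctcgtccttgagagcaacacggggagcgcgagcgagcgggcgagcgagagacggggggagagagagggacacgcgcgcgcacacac

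EDNRB promoter, the upstream of its 2 windows, chr13:77919683-77919932, minus strand: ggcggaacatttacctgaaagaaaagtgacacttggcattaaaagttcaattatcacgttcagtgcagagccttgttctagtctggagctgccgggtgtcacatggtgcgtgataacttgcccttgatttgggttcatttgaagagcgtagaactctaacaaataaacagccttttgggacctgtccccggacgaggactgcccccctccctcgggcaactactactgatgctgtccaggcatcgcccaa

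OCA2 promoter, chr15:28099316-28099565, minus strand: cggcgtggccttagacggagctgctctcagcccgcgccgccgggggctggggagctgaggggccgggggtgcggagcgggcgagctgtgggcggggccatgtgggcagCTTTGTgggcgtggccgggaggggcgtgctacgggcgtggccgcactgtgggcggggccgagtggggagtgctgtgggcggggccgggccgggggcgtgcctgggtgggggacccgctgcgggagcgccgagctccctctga

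RAB27A promoter, the most upstream of its 5 windows, chr15:55319124-55319373, minus strand: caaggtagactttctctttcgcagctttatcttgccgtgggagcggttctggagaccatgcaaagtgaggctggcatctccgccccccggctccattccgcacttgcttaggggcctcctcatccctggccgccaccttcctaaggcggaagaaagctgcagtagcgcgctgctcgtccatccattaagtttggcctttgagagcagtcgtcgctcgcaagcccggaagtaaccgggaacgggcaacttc

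MITF promoter, the most downstream of its 3 windows and the start used in melanocytes, chr3:69936342-69936591, plus strand: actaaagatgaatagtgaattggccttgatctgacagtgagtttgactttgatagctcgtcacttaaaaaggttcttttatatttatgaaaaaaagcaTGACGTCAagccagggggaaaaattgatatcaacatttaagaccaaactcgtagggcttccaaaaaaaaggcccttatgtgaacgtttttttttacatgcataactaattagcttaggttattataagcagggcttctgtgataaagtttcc

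The ZEB2 window held an M-box, as its reverse complement CACATGA, with its first base 180 bases before the start, and an ACAAAG motif at 138 bases. Over 35116 promoter windows of the same length, 2.52% held the M-box and 13.7% held ACAAAG. SOX5 held the ACAATG motif 2 times, as CATTGT, at 180 and 138 bases, and 9.29% of all windows held it. OCA2 held ACAAAG as CTTTGT at 142 bases. MITF held the cyclic AMP response element at 152 bases, a motif found in 1.65% of all windows, and no printed window held the E-box, which 6.34% of all windows had. The printed windows of EDNRB and RAB27A held none of the 5 motifs. Another RAB27A window, chr15:55249049-55249298, held ACAATG 2 times, at 175 and 82 bases, and the other MITF windows held ACAATG at 214 bases and ACAAAG at 189 bases. These are matches of letters in a window, with no measurement of binding.

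SOX10 fell in the first 4 h of the higher dose and was above DMSO by 24 h. At 4 h the DMSO arrays read 9.69, 9.55, 9.59 and 9.61, and the 468 nM arrays read 8.92, 8.83, 8.75, 8.82 and 9.08. All 5 treated arrays lay below all 4 DMSO arrays. The fall was -0.73 ± 0.13 (SE) on the log2 scale, 1.65-fold, with a limma adjusted p of 4.31e-04. At 75 nM the arrays read 9.64, 9.71, 9.40, 9.45 and 9.38, overlapping DMSO, and the difference of -0.091 ± 0.13 did not pass the test (adjusted p = 0.939). The higher dose differed from the lower dose by -0.64 ± 0.13, with no overlap between their arrays (adjusted p = 0.00392).

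At 24 h SOX10 read 9.24, 9.37, 9.67 and 9.64 in DMSO and 10.39, 10.37, 9.99, 9.55 and 10.02 at 468 nM. Replicate 4 of the treated group, at 9.55, lay inside the DMSO range and the other 4 lay above it. SOX10 was higher by 0.58 ± 0.13 (adjusted p = 8.51e-04), 1.50-fold, and by 0.71 without replicate 4. Over all fits that left out 1 array the rise ran from 0.50 to 0.71. Within the 4 series of sample titles (described below) that hold a DMSO array, SOX10 was higher in 3 and lower in 1, from -0.12 to 1.12. At 75 nM it read 9.81, 10.01, 9.57, 9.75 and 9.69, and the difference of 0.28 ± 0.13 did not pass (adjusted p = 0.295). The effect of 468 nM at 24 h minus that at 4 h was 1.31 ± 0.19 (adjusted p = 2.26e-05), so the opposite signs at the 2 times differed beyond the spread. In order of the group means SOX10 was highest at 468 nM and 24 h (10.07 ± 0.34, SD, n = 5), then at 75 nM and 24 h (9.77 ± 0.16, n = 5), in DMSO at 4 h (9.61 ± 0.06, n = 4), at 75 nM and 4 h (9.52 ± 0.15, n = 5), in DMSO at 24 h (9.48 ± 0.21, n = 4) and at 468 nM and 4 h (8.88 ± 0.13, n = 5). Only the last stood clear of its neighbour in array values. The neighbours at the top, the doses at 24 h, differed by 0.30 ± 0.13 (adjusted p = 0.0721), a difference that passed without 75 nM replicate 2 (0.0418) or 468 nM replicate 4 (0.00462) and did not pass in 15 of 18 alternatives.

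ZEB2 had the largest early fall of the 9 genes tested and was back at the DMSO level by 24 h. At 4 h DMSO read 6.30, 6.31, 5.55 and 6.05, and 468 nM read 4.85, 4.74, 5.11, 4.73 and 5.01. No treated array reached the lowest DMSO array. The fall was -1.17 ± 0.17, 2.24-fold (adjusted p = 1.95e-05), to a mean of 4.89 ± 0.17 (SD, n = 5), just under the filter value. At 75 nM ZEB2 read 6.14, 5.95, 5.94, 5.92 and 5.67, within the DMSO range, with a difference of -0.13 ± 0.17 (adjusted p = 0.934). The higher dose differed from 75 nM by -1.04 ± 0.16 with no overlap (adjusted p = 2.56e-04).

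At 24 h ZEB2 read 6.04, 5.79, 6.12 and 5.72 in DMSO, 5.36, 5.86, 5.89, 6.15 and 5.71 at 75 nM, and 5.90, 6.12, 5.34, 5.53 and 5.92 at 468 nM. The 3 groups overlapped. The difference was -0.16 at 468 nM (adjusted p = 0.468), with a 95% interval from -0.50 to 0.19, and -0.12 at 75 nM (adjusted p = 0.761). The effect of 468 nM at 24 h was higher than that at 4 h by 1.01 ± 0.24 (adjusted p = 0.00296).

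SOX10 and ZEB2 were the 2 genes of the 9 called at 4 h and 468 nM, both lower, where 10.9% of all tested genes were called, 6.95% lower and 3.96% higher. The same 2 were called between the doses at 4 h, where the share of all genes was 2.56%, with 1.43% lower and 1.13% higher. At 75 nM and 4 h limma called 0 of the 9, 0 also had an unadjusted p below 0.05, and 0.679% of all genes were called, 0.345% lower and 0.334% higher. The median difference of the 9 at 468 nM and 4 h was -0.14, beside -0.027 over all tested genes.

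**Figure D2:**
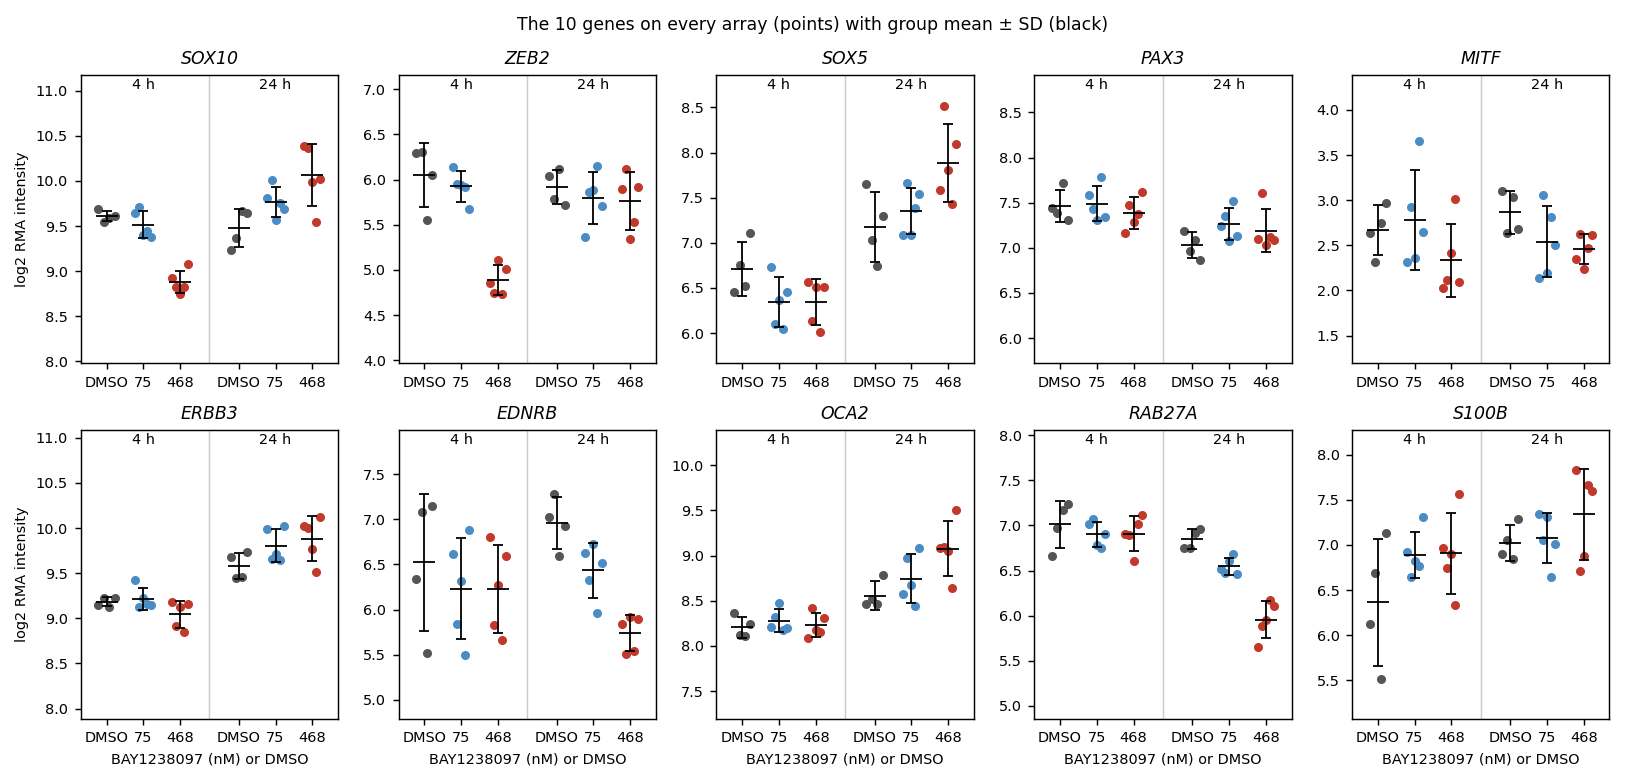
Log2 RMA intensity (y axis) of the 10 genes on every array, by BAY1238097 dose in nM or DMSO and by time (x axis), with each group's mean ± SD in black. All panels span the same number of log2 units, from different origins. SOX10 and ZEB2 at 468 nM and 4 h lie below all DMSO arrays of that time, and RAB27A and EDNRB at 468 nM and 24 h lie below all DMSO arrays of that time.

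SOX5, which carries an HMG box as SOX10 does, was higher at the later time. At 24 h DMSO read 7.65, 7.03, 6.74 and 7.30, 75 nM read 7.09, 7.66, 7.09, 7.39 and 7.54, and 468 nM read 7.59, 8.52, 7.81, 7.43 and 8.09. The highest DMSO array lay above 2 of the 468 nM arrays, so the groups overlapped. Within the 4 series of sample titles (described below) that hold a DMSO array, SOX5 was higher at 468 nM in 4 of 4, by 0.69 to 0.87. SOX5 was higher at 468 nM by 0.71 ± 0.21, 1.63-fold (adjusted p = 0.00695), and by 0.18 ± 0.21 at 75 nM without passing (adjusted p = 0.712). When arrays were shifted to hold 7 reference genes level, the rise at 468 nM was 0.56 and no longer passed (adjusted p = 0.0752), the highest of its 17 alternatives, which started at 0.0023.

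At 4 h SOX5 lay the other way without passing. DMSO read 6.45, 6.75, 6.52 and 7.11, and 468 nM read 6.57, 6.13, 6.51, 6.01 and 6.51, an overlap with a difference of -0.36 ± 0.21 (adjusted p = 0.329). At 75 nM the difference was -0.37 ± 0.21 (adjusted p = 0.680). Within the 4 title series that hold a DMSO array, SOX5 at 4 h was lower in 4 of 4 at each dose. These differences ran from -0.66 to -0.34 at 75 nM and from -0.60 to -0.24 at 468 nM. The effects of 468 nM at 24 h and at 4 h differed by 1.07 ± 0.29 (adjusted p = 0.00943). Between the doses at 24 h SOX5 was higher by 0.53 ± 0.20 at 468 nM (adjusted p = 0.0407), a call that did not survive leaving out 75 nM replicate 1, 3 or 4 or 468 nM replicate 2, 3 or 5 (adjusted p from 0.0544 to 0.145). It was also lost with no filter (0.108), with only the groups compared (0.0744) and with the shift by reference genes (0.115).

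PAX3, which acts beside SOX10 upstream of MITF, was called in no comparison. Its values at 4 h were 7.44, 7.39, 7.72 and 7.31 in DMSO and 7.16, 7.48, 7.29, 7.37 and 7.62 at 468 nM. At 24 h they were 7.19, 6.97, 7.09 and 6.86 in DMSO, 7.24, 7.35, 7.08, 7.52 and 7.13 at 75 nM, and 7.10, 7.61, 7.03, 7.12 and 7.09 at 468 nM. Dosed and DMSO arrays overlapped at both times. The 95% interval of its difference at 468 nM ran from -0.35 to 0.18 at 4 h and from -0.10 to 0.43 at 24 h. At 75 nM and 24 h the difference was 0.24 ± 0.13 (adjusted p = 0.367).

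MITF, below the filter, was not tested. Its values were 2.64, 2.31, 2.75 and 2.97 in DMSO and 2.03, 2.11, 2.42, 3.01 and 2.09 at 468 nM at 4 h. At 24 h they were 3.10, 2.64, 3.04 and 2.68 in DMSO and 2.35, 2.62, 2.24, 2.47 and 2.61 at 468 nM. The arrays at 468 nM all lay below DMSO at 24 h, with a difference of -0.41 between the means, at levels near that of the median probe set. With no filter on the table MITF had an adjusted p of 0.302 there. A fall of MITF RNA could thus not be measured with this probe set, and no array of any group read above 3.66.

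ERBB3, the neuregulin receptor, was higher at 468 nM and 24 h, by the smallest difference of the 6 genes called there. At 4 h it read 9.15, 9.23, 9.13 and 9.23 in DMSO and 9.18, 8.91, 9.12, 8.85 and 9.16 at 468 nM, a difference of -0.14 ± 0.12 (adjusted p = 0.549). At 24 h it read 9.68, 9.45, 9.46 and 9.73 in DMSO, 9.99, 9.66, 9.71, 9.65 and 10.02 at 75 nM, and 10.02, 10.00, 9.77, 9.51 and 10.12 at 468 nM. The 24 h groups overlapped, with 4 of the 5 arrays at 468 nM above every DMSO array. The rise at 468 nM was 0.31 ± 0.12, 1.24-fold (adjusted p = 0.0324), and the difference at 75 nM was 0.23 ± 0.12 (adjusted p = 0.336).

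The ERBB3 call at 24 h depended on single arrays and settings. It was lost without 468 nM replicate 1, 2 or 5 (adjusted p = 0.0745, 0.0674 and 0.0928) and without DMSO replicate 2 or 3 (0.0988 and 0.0951). It was also lost with no filter (0.0985), with only the groups compared in the fit (0.130) and with the shift by reference genes, where the rise was 0.16 (0.458). Its lowest adjusted p over 17 alternatives was 0.0037. The difference of its effects between 24 h and 4 h, 0.44 ± 0.16 (adjusted p = 0.0485), passed in 10 of 26 alternatives, and the adjusted p reached 0.198. Leaving out 1 array ended that call in 12 of 18 cases: any 1 of the 4 DMSO arrays at 4 h, DMSO replicate 2 or 3 at 24 h, 468 nM replicate 2, 3 or 4 at 4 h, and 468 nM replicate 1, 2 or 5 at 24 h.

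EDNRB, the endothelin receptor, had the largest late fall of the set. At 24 h it read 7.03, 7.28, 6.59 and 6.93 in DMSO, 6.63, 6.33, 6.73, 5.96 and 6.52 at 75 nM, and 5.84, 5.51, 5.92, 5.54 and 5.90 at 468 nM. All 468 nM arrays lay below all DMSO arrays and below all 75 nM arrays. The fall at 468 nM was -1.21 ± 0.29, 2.32-fold (adjusted p = 0.00138). At 75 nM the difference was -0.52 ± 0.29 (adjusted p = 0.388), and the doses differed by -0.69 ± 0.27 (adjusted p = 0.0573). The last did not pass in 13 of 18 alternatives. It passed without 75 nM replicate 4 (0.0385), with only the groups compared (0.00746) and with a filter at log2 7 (0.0386). It also passed with trend and robust settings (0.0496) and with the series of the sample titles, described below, as a block (0.00191).

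At 4 h EDNRB ranged widely within each group. DMSO read 6.34, 7.08, 5.52 and 7.15, 75 nM read 6.62, 5.84, 6.32, 5.50 and 6.88, and 468 nM read 6.80, 5.83, 6.27, 5.66 and 6.59. The 3 ranges overlapped almost wholly, and the differences from DMSO were -0.29 at both doses (adjusted p = 0.901 at 75 nM and 0.641 at 468 nM). Running numbers in the sample titles order the arrays into 5 series, whose meaning is not given in the labels used. The EDNRB array of the fourth series was the lowest of its group in 5 of the 6 groups, with a mean deviation of -0.56 from the group means, and the same held for OCA2 with -0.19. Within the 4 series that hold a DMSO array, EDNRB at 24 h was lower at 468 nM in 4 of 4, by -1.52 to -1.03, and at 75 nM in 4 of 4, by -0.69 to -0.41. Between the doses it was lower at 468 nM in 5 of 5 series, by -0.82 to -0.42. At 4 h EDNRB was lower than DMSO in 4 of 4 series at 75 nM, by -0.76 to -0.013. At 468 nM and 4 h it was lower in 3 of 4 and higher in 1, from -0.81 to 0.14.

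OCA2, the melanosomal transporter, was higher at 468 nM and 24 h. It read 8.46, 8.52, 8.46 and 8.79 in DMSO, 8.57, 8.97, 8.67, 8.44 and 9.08 at 75 nM, and 9.08, 9.10, 9.05, 8.64 and 9.50 at 468 nM. Only 468 nM replicate 4, the array of title series 4, fell within the DMSO range. The rise was 0.52 ± 0.14, 1.43-fold (adjusted p = 0.00314), and at 75 nM the difference was 0.19 ± 0.14 (adjusted p = 0.531). With the shift by reference genes the rise was 0.37 and did not pass (adjusted p = 0.0808), the highest of 17 alternatives that started at 3.34e-04.

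At 4 h OCA2 read 8.36, 8.12, 8.11 and 8.24 in DMSO and 8.09, 8.42, 8.18, 8.15 and 8.31 at 468 nM, a difference of 0.02 ± 0.14 (adjusted p = 0.956). The doses differed at 24 h by 0.33 ± 0.13 (adjusted p = 0.0530), and the effects of 468 nM at the 2 times by 0.49 ± 0.19 (adjusted p = 0.0637). Neither passed, in 12 of 18 alternatives of the first and 21 of 26 of the second likewise. The first passed without 75 nM replicate 2 (0.0341) or 5 (0.0191) or 468 nM replicate 4 (0.00803), and the second without replicate 4 of 468 nM (0.0143) or of DMSO (0.0391) at 24 h. Both also passed with the title series as a block (0.0158 and 0.0201). The same held with a filter at log2 7 (0.0362 and 0.0426) and with trend and robust settings (0.0386 and 0.0471).

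RAB27A was lower at 468 nM and 24 h than in either other group of that time. It read 6.75, 6.75, 6.92 and 6.96 in DMSO, 6.52, 6.47, 6.61, 6.68 and 6.46 at 75 nM, and 5.65, 5.89, 5.95, 6.17 and 6.11 at 468 nM. The 3 groups did not overlap. The fall at 468 nM was -0.89 ± 0.12, 1.85-fold (adjusted p = 1.38e-06), and 468 nM differed from 75 nM by -0.59 ± 0.11 (adjusted p = 2.42e-04). At 75 nM the difference of -0.30 ± 0.12 did not pass over all genes (adjusted p = 0.224, unadjusted p = 0.0209).

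At 4 h RAB27A read 6.66, 6.97, 7.17 and 7.24 in DMSO and 6.90, 6.89, 6.61, 7.02 and 7.12 at 468 nM, a difference of -0.10 ± 0.12 (adjusted p = 0.708). The effects at the 2 times differed by -0.79 ± 0.17 (adjusted p = 0.00142). The second probe set showed another course. Its difference at 468 nM was -0.98 at 4 h, from 4.97 ± 0.46 (SD, n = 4) to 4.00 ± 0.27 (n = 5) with no overlap, and -0.48 at 24 h with overlap. With the mean of both probe sets RAB27A was called lower at 4 h (-0.54, adjusted p = 0.0348), and the difference of its effects between the times was -0.14 and did not pass (adjusted p = 0.708). The fall at 24 h kept its call in all 17 alternatives, from -1.04 to -0.68.

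S100B was called in no comparison and had the widest spread among the DMSO arrays at 4 h after EDNRB. At 4 h it read 6.13, 6.69, 5.51 and 7.13 in DMSO, 6.92, 6.64, 6.82, 6.77 and 7.31 at 75 nM, and 6.97, 6.75, 6.90, 6.34 and 7.57 at 468 nM. No dosed array was as low as the 2 lowest DMSO arrays, and the groups overlapped. The differences of 0.53 ± 0.27 at 75 nM (adjusted p = 0.606) and 0.54 ± 0.27 at 468 nM (adjusted p = 0.240) did not pass. Within the 4 title series that hold a DMSO array, S100B at 4 h was higher in 4 of 4 at each dose. These differences ran from 0.13 to 1.26 at 75 nM and from 0.20 to 0.83 at 468 nM. At 24 h it read 6.90, 7.06, 6.85 and 7.29 in DMSO and 7.83, 6.71, 6.88, 7.67 and 7.60 at 468 nM, with 3 treated arrays above DMSO and 1 below it, and a difference of 0.31 ± 0.27 (adjusted p = 0.355).

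**Figure D3:**
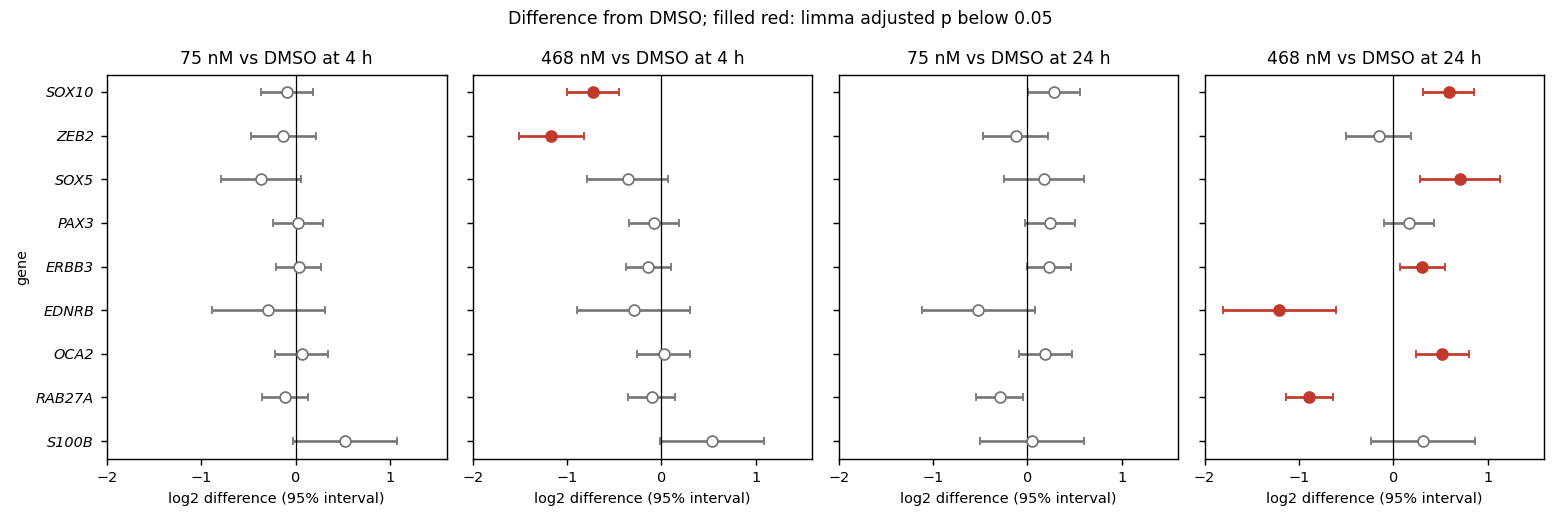
Log2 difference from DMSO (x axis, points with 95% intervals from the limma fit) of the 9 genes tested (y axis), in 1 panel for each dose and time. Filled red points have an adjusted p below 0.05: 0 at 75 nM and 4 h, 2 at 468 nM and 4 h, 0 at 75 nM and 24 h, and 6 at 468 nM and 24 h.

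At 468 nM and 24 h limma called 6 of the 9 genes, where it called 45.6% of all tested genes, so a high share was called there in general. SOX10, SOX5, ERBB3 and OCA2 were higher (20.4% of all genes were called higher) and EDNRB and RAB27A were lower (25.1% were called lower). The median difference of the 9 was 0.31, beside -0.019 over all tested genes. With the shift by reference genes 3 of the 9 were called, SOX10 higher and EDNRB and RAB27A lower. At 75 nM and 24 h 0 of the 9 were called, 2 had an unadjusted p below 0.05 (SOX10 and RAB27A), and 0.872% of all genes were called, 0.474% lower and 0.398% higher.

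Between the doses at 24 h 2 of the 9 were called, SOX5 higher and RAB27A lower, where 30.8% of all genes were called, 17.4% lower and 13.4% higher. The difference of the effects of 468 nM between 24 h and 4 h was called for 5 of the 9, SOX10, SOX5, ZEB2 and ERBB3 upward and RAB27A downward, where 23.5% of all genes were called, 12.7% downward and 10.8% upward. For EDNRB it was -0.92 ± 0.41 (adjusted p = 0.108), and it passed with the title series as a block (0.00666). The same difference for 75 nM was called for 0 of the 9, 0 of which had an unadjusted p below 0.05, and for 0.0323% of all genes.

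**Figure D4:**
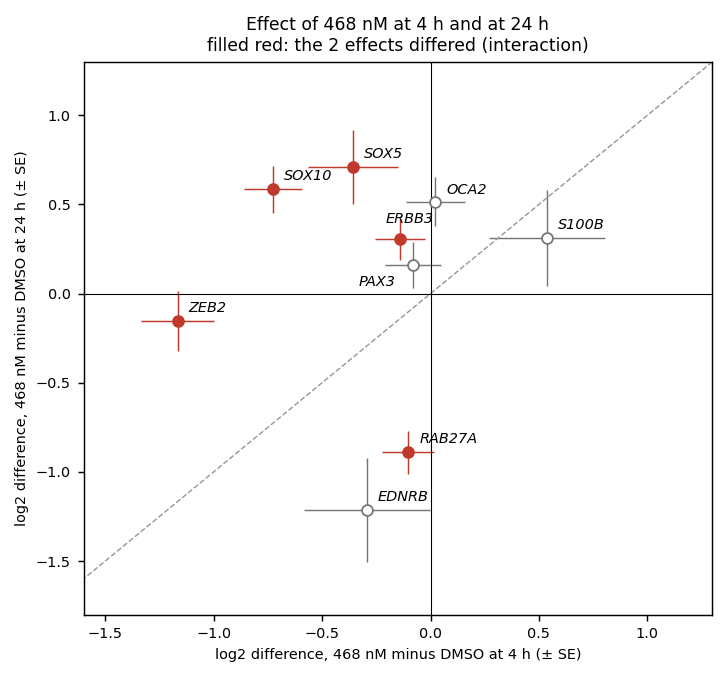
Log2 difference of 468 nM from DMSO at 24 h (y axis) against that at 4 h (x axis) for the 9 genes tested, with standard errors as bars and the line of equal effects dashed. Filled red points are the 5 genes whose effects differed between the times in the limma fit. SOX10 lies at -0.73 and 0.58, ZEB2 at -1.17 and -0.16, and RAB27A at -0.10 and -0.89.

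In DMSO alone, 24 h against 4 h, limma called 0 of the 9, 5 had an unadjusted p below 0.05, and 5.23% of all genes were called, 2.61% lower and 2.63% higher. PAX3 was lower by -0.44 ± 0.14 (adjusted p = 0.0561) and ERBB3 higher by 0.40 ± 0.12 (adjusted p = 0.0533), each with no overlap between the times. PAX3 passed without DMSO replicate 1 at 24 h (0.0479) or replicate 4 at 4 h (0.0477). With the title series as a block PAX3 (0.0221) and ERBB3 (0.00990) passed, but across these times 0 of 4 same-series pairs correlated over 0.1. OCA2 also did not overlap, higher by 0.35 ± 0.14 (adjusted p = 0.143). S100B was higher by 0.66 ± 0.28 (adjusted p = 0.162) and SOX5 by 0.47 ± 0.22 (adjusted p = 0.194), with overlap. SOX10 at -0.13, ZEB2 at -0.14 and RAB27A at -0.17 did not pass, and these 3 signs turned with the shift by reference genes (to 0.071, 0.061 and 0.030). EDNRB was at 0.43 (adjusted p = 0.412).

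The shift by reference genes moved the median of all tested genes by more than 0.1 in several comparisons. Each array was shifted so that the mean of 7 reference genes was level. The median became -0.17 at 468 nM and 4 h, -0.15 at 75 nM and 24 h, -0.17 at 468 nM and 24 h, -0.13 between the doses at 4 h, 0.20 in DMSO over time, and -0.11 for the difference of the 75 nM effects. Lower calls were 63.7% of all calls at 468 nM and 4 h and 85.8% with the shift, 54.3% and 95.7% at 75 nM and 24 h, and 55.2% and 74.4% at 468 nM and 24 h. They were 50.8% and 66.7% at 75 nM and 4 h, 55.9% and 81.5% between the doses at 4 h, and 49.8% and 4.99% in DMSO over time. The falls of SOX10 and ZEB2 at 4 h, the rise of SOX10 at 24 h and the late falls of EDNRB and RAB27A kept their calls with it.

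Across the 28 arrays the 9 genes varied in common only in part. Pearson's correlation was 0.88 between SOX5 and ERBB3, 0.85 between ERBB3 and OCA2, 0.75 between SOX10 and ERBB3 and 0.64 between SOX10 and ZEB2. RAB27A was at -0.80 with OCA2, -0.73 with ERBB3, -0.72 with SOX5, -0.63 with SOX10 and -0.12 with ZEB2. PAX3 was at -0.11 with SOX10, and S100B at 0.19. These values describe 28 arrays that share 6 groups and a common normalization.

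The genes with the most similar pattern to SOX10 over the 28 arrays, of 9276 others tested, were DNAAF9 (r = 0.86), ZKSCAN8 (r = 0.85), a zinc finger protein, and TOX (r = 0.84), an HMG box factor of lymphocyte development. At 468 nM DNAAF9 was at -0.58 at 4 h and 0.61 at 24 h, and ZKSCAN8 at -0.61 and 0.51. TOX was at -0.47 and 0.26, and the call at 24 h was lost without 468 nM replicate 1, 2, 3 or 5 or DMSO replicate 1, 3 or 4 (adjusted p from 0.0524 to 0.163) and held in 6 of 17 alternatives in all. Nearest to ZEB2 were the zinc finger genes HIVEP2 (r = 0.84), KLF6 (r = 0.82) and ZNF827 (r = 0.78). At 468 nM and 4 h these were at -1.07, -0.95 and -1.55, all called lower (adjusted p = 3.57e-06, 3.66e-06 and 3.22e-07), and at 24 h they were at -0.12, 0.059 and -0.24 without passing. None of these values is independent of the pattern that chose the genes.

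Further neural crest transcription factors included 8 of 18 that passed the filter. At 468 nM and 24 h 2 of the 8 were called, both lower, beside 45.6% of all tested genes called and 25.1% called lower. The median difference of the 8 was -0.059. SOX8, a SOX factor of the same group as SOX10, fell from 8.06 ± 0.10 (SD, n = 4) to 6.78 ± 0.69 (n = 5), by -1.28 ± 0.25 (adjusted p = 1.43e-04). SNAI1, a repressor of the same epithelial-mesenchymal programme as ZEB2, fell from 7.19 ± 0.12 to 6.07 ± 0.41, by -1.12 ± 0.16 (adjusted p = 3.99e-06). Arrays of the groups did not overlap for either gene. Both effects differed from those at 4 h, by -1.64 ± 0.35 for SOX8 (adjusted p = 0.00126) and -1.12 ± 0.23 for SNAI1 (adjusted p = 9.15e-04). At 24 h SOX8 was thus below DMSO and SOX10 above it. SOX9, ZEB1 and TWIST1 were below the filter, as were the MITF relatives TFEB and TFEC, while TFE3 passed and was not called.

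Of 14 ligands and partner receptors, 5 passed. At 468 nM and 4 h 1 of the 5 was called, higher, beside 3.96% of all genes called higher, and at 24 h 2 were, beside 20.4%. KITLG, the ligand of the KIT receptor of melanoblasts, rose at 4 h from 5.18 ± 0.19 (SD, n = 4) to 6.47 ± 0.33 (n = 5), by 1.29 ± 0.19 (adjusted p = 2.06e-05) with no overlap. At 24 h it was higher by 0.71 ± 0.19 (adjusted p = 0.00301). ECE1, the enzyme that releases active endothelin, was higher at 24 h by 0.41 ± 0.13 (adjusted p = 0.00982), a call lost without DMSO replicate 3 (0.0561), with only the groups compared (0.0907) and with the shift by reference genes (0.235). KIT itself and the endothelin genes EDN1, EDN2 and EDN3 were below the filter. In DMSO over time AXL (-0.72 ± 0.16, adjusted p = 0.0119) and NGFR (-0.88 ± 0.21, adjusted p = 0.0166) were lower, beside 2.61% of all genes. These 2 genes were named after their values were seen, and each call was lost without 1 DMSO array at 4 h, replicate 1 for AXL (0.0506) and replicate 3 for NGFR (0.0685). Each was also lost with no filter (0.0598 and 0.0696). The AXL call was lost as well with only the groups compared (0.0669) and with the shift by reference genes (0.0600).

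Among 15 genes listed as partners, effectors or regulators of RAB27A or other RAB proteins, 4 passed. MLPH (melanophilin), which joins RAB27A to its motor, RAB27B and the effectors SYTL1, SYTL2, SYTL3, SYTL4 and SYTL5 were below the filter. At 468 nM and 24 h 3 of the 4 were called, 2 higher and 1 lower, where 45.6% of all genes were. MYO5A, the myosin Va motor, was higher by 0.38 ± 0.14 (adjusted p = 0.0317) and RAB3GAP1, the catalytic subunit of a RAB GTPase-activating complex, by 0.35 ± 0.12 (adjusted p = 0.0143). CHML, an escort protein that prepares RAB proteins for lipidation, was lower by -0.52 ± 0.15 at 4 h (adjusted p = 0.0185) and by -0.52 ± 0.15 at 24 h (adjusted p = 0.00513). The MYO5A call was lost without 468 nM replicate 1, 2 or 5 or DMSO replicate 2, 3 or 4 (adjusted p from 0.0555 to 0.106), and the RAB3GAP1 call without 468 nM replicate 2 (0.0503) or DMSO replicate 3 (0.0553). With the shift by reference genes MYO5A was at 0.23 (0.306) and RAB3GAP1 at 0.21 (0.310), and both calls were also lost with no filter (0.0895 and 0.0513) and with only the groups compared (0.0910 and 0.0588). The CHML call at 4 h was lost without DMSO replicate 1 (0.0563) or 2 (0.0768) and with no filter (0.0658), and that at 24 h with only the groups compared (0.0583). Of the 2 pigment genes that passed, RAB38 was lower at 468 nM and 24 h by -0.48 ± 0.19 (adjusted p = 0.0403), a call lost without 468 nM replicate 1, 2 or 3 or DMSO replicate 1 or 3 (adjusted p from 0.0659 to 0.112), with no filter (0.102) and with repeated quantile normalization (0.0679).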

How the data were processed

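RNA of 28 CHL-1 samples was hybridised to Affymetrix arrays. For each of 53617 probe sets the authors deposited a linear intensity from RMA, per the submitters' processing notes and the range of the values. No source used here names the genome build of the probe sets. The deposited values were taken to log2, and symbols came from the platform annotation: 23871 probe sets had 1 symbol, 1842 had several and 27904 had none. For each of 22357 genes the probe set with the highest mean was kept, and 9285 genes above log2 5 on at least 4 arrays were tested. Means of the 6 groups were fitted over all 28 arrays with limma 3.58.1 in R 4.3.3 (lmFit, contrasts, eBayes; 22 residual degrees of freedom), with Benjamini-Hochberg adjustment over the 9285 genes and a threshold of 0.05. The fit was tested on simulated data. Running numbers in the titles pair the arrays at 4 h by the check used: all same-series pairs of DMSO with 75 nM (4 pairs), DMSO with 468 nM (4) and the doses (5) correlated over 0.1, from 0.103 to 0.345, in deviations from group means. The main design has no block, and blocking changed no call at 4 h. The number of arrays limits the precision. No arrays held identical values. Named were all 10 genes, the called genes of each further list (at most 4 by size) and the 3 nearest patterns to SOX10 and to ZEB2. The genes and lists were chosen with earlier results of these data known. Alternatives were no filter, a filter at log2 7, only the groups compared, repeated quantile normalization, a shift by reference genes, the mean of all probe sets, eBayes with trend and robust settings, the title series as a block, and leaving out each array.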

Additional observations from a re-analysis of the deposited data

Results flagged for a closer look

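PAX3 on replicate 2 at 468 nM and 24 h read 7.61, while the median of the other 4 arrays of that group was 7.09, and the gap to the nearest array was 0.844 of the group's range. It was the 1 group of 60 (10 genes in 6 groups) with an array so far from the rest, where chance gives about 1 in 20.

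The effect of 468 nM at 24 h differed from that at 4 h by 1.31 for SOX10, 1.07 for SOX5, 1.01 for ZEB2, 0.44 for ERBB3 and -0.79 for RAB27A on the log2 scale, each by the interaction term of the limma fit over 28 arrays.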

How the results depend on the processing

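The falls of SOX10 and ZEB2 at 468 nM and 4 h, and the SOX10, EDNRB and RAB27A differences at 24 h, kept their direction and call in every alternative in which the gene was tested, from -0.87 to -0.69, -1.33 to -1.08, 0.44 to 0.71, -1.36 to -1.10 and -1.04 to -0.68. Over 17 called values of the 9 genes and 335 recomputed values, 299 kept the call, 36 lost it and 0 reversed. At a filter of log2 7, where ZEB2 is not tested, 1 gene was called at 468 nM and 4 h and 1 between the doses at 4 h. With the shift by reference genes 3 genes were called at 468 nM and 24 h. Between the doses at 24 h, 1 gene was called with no filter, 4 with a filter at log2 7, 1 with the shift, 5 with trend and robust settings, and 1 to 4 without 1 array. In DMSO over time, 2 were called with a filter at log2 7, 2 with the shift, 2 with trend and robust settings, and 0 to 1 without 1 array. In DMSO across times 0 of 4 pairs were over 0.1, so the numbers were not taken to pair those arrays. At 24 h 1 same-series pair in each comparison correlated below 0.1 (lowest 0.015), so pairing by that check was incomplete. By the best correlated array, pairing at 24 h was much as at 4 h. For DMSO with 75 nM, 7 of 8 arrays correlated best with their own number at each time. For DMSO with 468 nM they were 6 of 8 at 24 h and 5 of 8 at 4 h, and for the doses 9 of 10 and 8 of 10. For 24 h, results with the block are therefore given beside those without it where the block changed a call. With the replicate block, 4 genes were called between the doses at 24 h, EDNRB (adjusted p = 0.00191) and OCA2 (0.0158) being added (ranges 0.00191 to 0.138 and 0.00803 to 0.185 over 18 alternatives). In DMSO over time 2 were, PAX3 (0.0221; range 0.0221 to 0.354) and ERBB3 (0.00990; range 0.00990 to 0.193). For the effect of 468 nM at 24 h minus 4 h 7 were, with EDNRB (0.00666; range 0.00666 to 0.283) and OCA2 (0.0201; range 0.0143 to 0.179) added. The block changed no other call of the 9 genes. Some uncalled values turned sign: ERBB3 at 75 nM and 4 h was -0.0080 with the block and -0.017 to 0.054 without 1 array, and OCA2 at 468 nM and 4 h was -0.12 with the shift and -0.025 to 0.074 without 1 array. PAX3 at 4 h ran from -0.048 to 0.11 at 75 nM and from -0.14 to 0.0052 at 468 nM without 1 array. S100B at 75 nM and 24 h was -0.0057 with the block, -0.091 with the shift and -0.019 to 0.15 without 1 array. In DMSO over time the shift gave 0.071 for SOX10, 0.061 for ZEB2 and 0.030 for RAB27A. The cause of these changes was not tested. MITF lies too near background for a fall to be measured, and ZEB2 at 468 nM and 4 h lies near the filter value.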
